A study of Mus musculus with 6 samples.

Results

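Kinesins are motor proteins that use ATP to step along microtubules or to take their ends apart. In a zygote they build the spindle of the first mitosis, align chromosomes on it, organise the midzone that places the cleavage furrow, and carry organelles and vesicles. Since transcription is low at this stage, most of their mRNA is inherited from the oocyte, where translation of stored mRNA depends on the length of its poly(A) tail. The kinesin motor genes were taken as every gene of class protein_coding whose symbol begins with Kif followed by a digit or by c, which gave 41 of the 25731 genes in the table. A further 4 genes with a Kif symbol, 3 pseudogenes and 1 lncRNA, were left out by this rule, and so were motors named otherwise, such as Cenpe.

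Trim-away is a method of protein depletion in which TRIM21, an E3 ligase that recognises antibodies, leads an injected antibody and the protein bound to it to the proteasome. In ZP3 Trim-away, wild-type zygotes of B6C3F1 x CD1 background received mCherry-Trim21 mRNA at 0.2 mg/mL, Oregon green dextran at 0.02 mg/mL and an antibody against the zona pellucida protein ZP3 at 1 mg/mL. In the buffer control, zygotes of the same background received the same mRNA and dextran with antibody buffer in place of the antibody, so both groups carried exogenous Trim21. Injection took place 15 h after hCG and RNA was extracted 10 h later from 3 pools of 13 zygotes in each group. Levels are given as RPKM, which is the number of reads scaled to the exon length of the gene and to the total of the library, and the values of control replicates 2 and 3 are those obtained after separating them from replicate 1, with which the deposited columns had been averaged.

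Library totals were 15291000 to 15746633 reads in ZP3 Trim-away and 17378251 to 20005724 reads in the buffer control. Genes above 0 numbered 18794 to 20316 in ZP3 Trim-away and 13202 to 14501 in the buffer control. Trim21 itself, which includes the injected mRNA, took 9.12% to 11% of reads in ZP3 Trim-away and 14.6% to 18.1% in the buffer control (log2 fold change −0.73, limma adjusted p = 0.0274). That call was lost with a pseudocount of 0.1 RPKM (adjusted p = 0.0507), with a replicate block (0.0594), without a filter (0.173), with a constant prior spread (0.176) and without any 1 of the ZP3 Trim-away libraries (0.19 to 0.213), and quantile normalization sets the difference to 0. All 11 oocyte and zygote markers found in the table were above 0 in every library, with summed levels of 10805 to 13086 RPKM in ZP3 Trim-away and 8871 to 10893 RPKM in the buffer control, led by Dppa3 at 5680 ± 757 RPKM in ZP3 Trim-away and 4215 ± 634 RPKM in the buffer control. Zar1 had the highest fold change among them (0.58) and Zp1 the lowest (−0.14). Of these 11, 0 passed with limma and 3 were higher and 0 lower at an unadjusted p under 0.05, with a median of 0.34. The 12 cumulus and granulosa markers found in the table summed to 20.2 to 31.4 RPKM in ZP3 Trim-away and 8.71 to 20.1 RPKM in the buffer control, and Col1a1, Foxl2 and Fshr were at 0 in at least 4 of the 6 libraries. Of 6 tested, 0 passed with limma, but 3 were higher and 1 lower at an unadjusted p under 0.05. The shares over all 9965 genes tested were 15.8% higher and 3.70% lower. The median log2 fold change of these 6 was 1.23, against 0.22 for all genes. Inha had 2.33, 2.80 and 7.49 RPKM in ZP3 Trim-away and 0 in all 3 controls (adjusted p = 0.0519), Tnfaip6 had 5.81 ± 1.95 RPKM in ZP3 Trim-away and 0.561 ± 0.971 RPKM in the buffer control (adjusted p = 0.0601), and Gja1 had 2.40 ± 1.92 RPKM in ZP3 Trim-away and 0.252 ± 0.437 RPKM in the buffer control (adjusted p = 0.174). Cyp19a1, the most abundant of the list, went the other way, at 5.72 ± 0.983 RPKM in ZP3 Trim-away and 9.34 ± 1.13 RPKM in the buffer control (adjusted p = 0.203). The part of these differences in the kinesin values was not tested. Fewer zygotes contributing to a pool and less RNA per zygote cannot be told apart, and neither can fewer mRNA molecules and shorter poly(A) tails, since the libraries were primed on poly(A).

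The 3′ ends of the kinesin mRNAs were read first, because the poly(A) tail of stored mRNA is controlled there. The polyadenylation signal is AATAAA or ATTAAA in DNA letters, and cytoplasmic polyadenylation in oocytes also uses a U-rich element, searched here as TTTTAT or TTTTAAT. Both were searched on the sense strand of the last 100 bases of the annotated transcript, and where the element adjoins a signal they can share letters. Of the 24 kinesins that averaged 1 RPKM or more over the 6 libraries, 23 had a 3′ UTR of at least 100 bases. A signal was found in 17 of these 23 (73.9%), against 82.8% of 7811 protein-coding genes tested, and the U-rich element in 5 of 23 (21.7%), against 21%. The genes with the element were Kif20b, Kif18a, Kif11, Kifc1 and Kif9, and the first 3 of these carried it with a signal in a single stretch of 30 bases. Below are 30 bases, 5′ to 3′, of those 3 and of 4 kinesins with the signal alone, with signal and element in capitals, since these 7 include the most abundant kinesin and members whose groups did not overlap.
Kif20b, element TTTTAAT and signal AATAAA, chr19:34975701-34975730, plus strand: tatataaTTTTAATtcAATAAAtatatcag
Kif18a, element TTTTAT and signal ATTAAA, chr2:109341707-109341736, plus strand: aataTTTTATtacttggtatATTAAAgatg
Kif11, signal ATTAAA and element TTTTAAT, chr19:37421830-37421859, plus strand: aattttttaaATTAAAttaTTTTAATtttt
Kif23, signal AATAAA, chr9:61917285-61917314, minus strand: caaaacaactgaAATAAAaaggcactaaga
Kif4, signal AATAAA, chrX:100727180-100727209, plus strand: gttaagaaaataAATAAAccttagttcatc
Kif2c, signal AATAAA, chr4:117159643-117159672, minus strand: gctgtacctaacAATAAAgaaagaagaaaa
Kif2a, signal AATAAA, chr13:106959000-106959029, minus strand: acgtcttcatacAATAAAttgttagaaagc
In Kif4 an earlier copy of AATAAA that overlaps the capitalised one is not marked. Coordinates and sequences are those of the GENCODE M21 transcripts on GRCm38, and a match is a description of these letters, not of a functional site.

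The kinesin mRNAs of the zygote were dominated by a few genes. The 41 genes summed to 607 ± 14.9 RPKM in ZP3 Trim-away and 584 ± 34.5 RPKM in the buffer control (SD, n = 3 each), and they took 0.372% ± 0.0133 of reads in ZP3 Trim-away and 0.368% ± 0.0146 in the buffer control. The most abundant, Kif23, made up 17.1% of the summed RPKM over the 6 libraries, the top 3 made up 46.2% and the top 10 made up 82.5%. By family, kinesin-6, whose 3 members act in cytokinesis, held 41.7%, and kinesin-2, mainly motors of cilia, held 18.9%. Levels of the 24 genes that reached a mean of 1 RPKM ran between 102 RPKM for Kif23 and 1.66 RPKM for Kif21a, and Kif13b lay just outside at 0.895 RPKM.

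**Figure D1:**
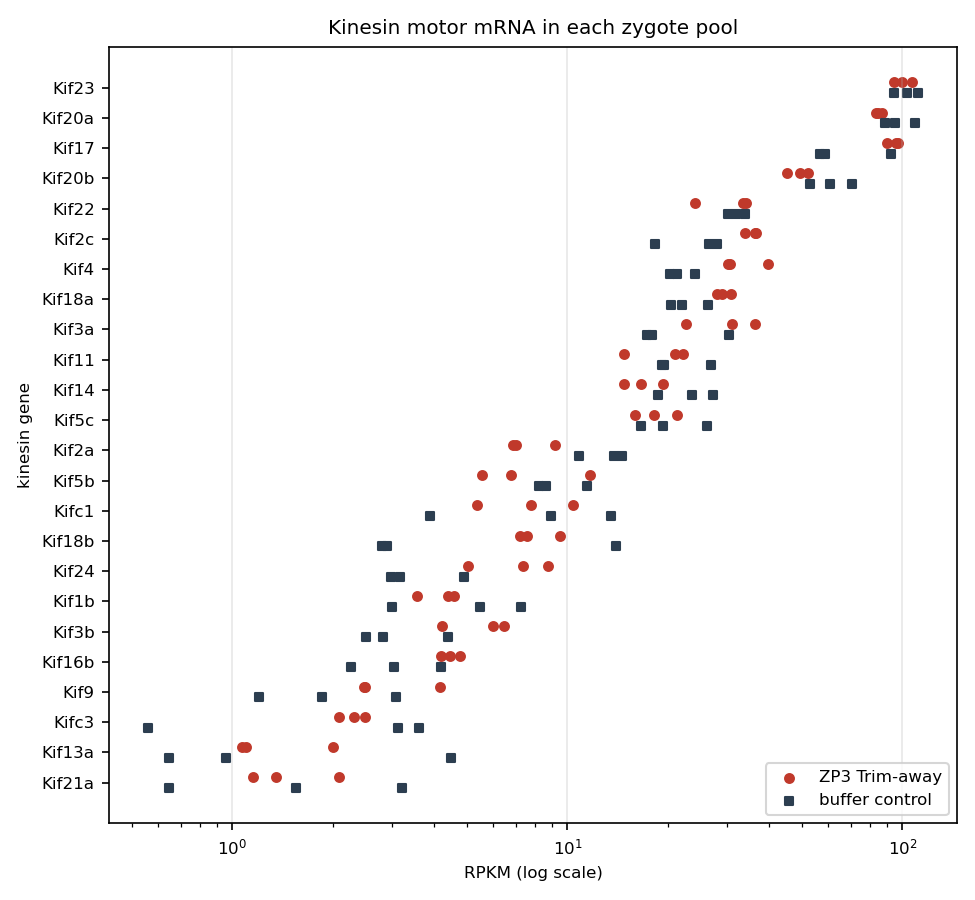
RPKM on a log scale of the 24 kinesins that averaged 1 RPKM or more, 1 point per library, with ZP3 Trim-away libraries as red circles above and buffer control libraries as dark squares below. Kif23, Kif20a, Kif17 and Kif20b lead in both groups, and most genes have overlapping groups.

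In the comparison of ZP3 Trim-away with the buffer control, no kinesin passed the test. With limma on log2(RPKM + 1), 0 of 24 kinesins had an adjusted p under 0.05, where 0.632% of the 9965 genes tested did (63 genes, 59 higher and 4 lower), and the smallest kinesin adjusted p was 0.121, of Kif4. At an unadjusted p under 0.05, 4 kinesins were higher (Kif4, Kif2c, Kif24 and Kif17), against a background of 15.8% of all genes, and 1 was lower (Kif2a), against 3.70%. The 3 libraries of each group did not overlap in 5 kinesins that were higher in ZP3 Trim-away (Kif2c, Kif4, Kif18a, Kif24 and Kif16b), against 20.3% of all genes, and in 3 that were lower (Kif20a, Kif20b and Kif2a), against 6.34%. The counts of higher kinesins lie near these backgrounds, and the lower ones are counts of 1 and 3 genes. Of the 24 log2 fold changes, 11 were positive (45.8%), against 67.3% over all genes, with a median of −0.04 for kinesins and 0.22 for all genes.

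The balance of directions moved with the scaling. With median ratio scaling the median of all genes was 0.07 and that of kinesins −0.19, and the kinesins at an unadjusted p under 0.05 were then 1 higher (Kif4), against 9.40% of all genes, and 4 lower, against 7.27%. The 4 were Kif2a, Kif20a, Kif20b and Kif14. With quantile normalization the medians were −0.01 for all genes and −0.22 for kinesins, and the same genes made up the split of 1 higher, against 8.78% of all genes, and 4 lower, against 9.12%. With totals that omit the reads of Trim21 the medians were 0.13 and −0.13, and the split was 3 higher (Kif4, Kif2c and Kif24), against 11.7% of all genes, and the same 4 lower, against 5.22%. None of these kinesins had an adjusted p under 0.05. Over all genes the adjusted calls were 9 higher and 3 lower with median ratio scaling, 18 higher and 6 lower with quantile normalization and 16 higher and 3 lower without Trim21 reads. Kifc3 was the only one of the 24 kinesins to change sign with median ratio scaling and with quantile normalization, and none did without Trim21 reads.

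**Figure D2:**
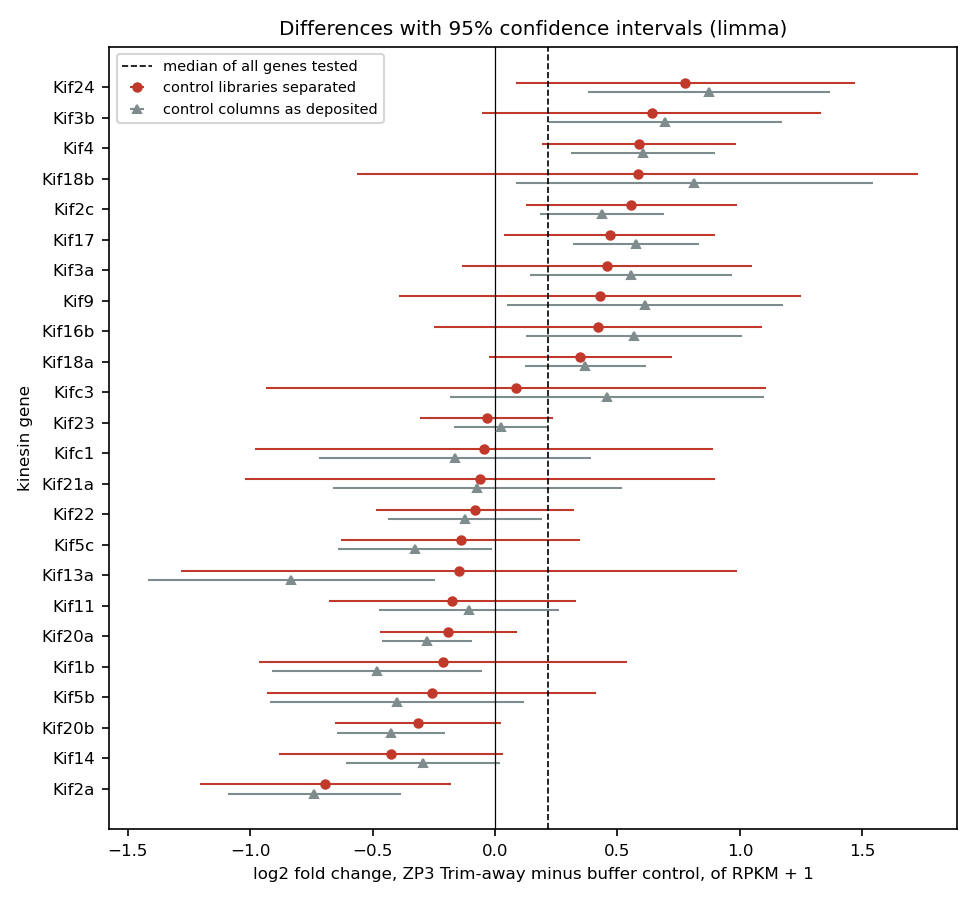
Log2 fold changes of RPKM + 1, ZP3 Trim-away minus buffer control, with 95% confidence intervals from limma for 24 kinesins, with control libraries separated (red circles) and with control columns as deposited (grey triangles). The dashed line is the median of all genes tested, 0.22, and the intervals of the separated libraries are wider and mostly cross 0.

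Kinesin-6 was the most abundant family. Kif23, the motor of the centralspindlin complex that bundles midzone microtubules, had 107, 99.8 and 94.6 RPKM in ZP3 Trim-away and 94.3, 103 and 112 RPKM in the buffer control, with full overlap of the groups. Its log2 fold change was −0.03, with a confidence interval of −0.31 to 0.24 (adjusted p = 0.899), the narrowest interval among the kinesins. Kif20a, which brings the chromosomal passenger complex to the midzone, had 83.5, 84.6 and 86.7 RPKM in ZP3 Trim-away and 109, 94.9 and 88.5 RPKM in the buffer control. The groups did not overlap, but the closest libraries lay near each other and the log2 fold change of −0.19 did not pass the test (adjusted p = 0.431). It was −0.38 with median ratio scaling (interval −0.67 to −0.09, unadjusted p = 0.0166, adjusted p = 0.189), −0.39 with quantile normalization, −0.38 with the length trend removed and −0.11 without control replicate 1. In Kif20a, 29.3% of exon bases are shared with Cdc23 on the opposite strand, and no source states that strand was used in counting, so its level is uncertain. The levels of Kif4, Kif2a and Kifc3, which also share exon bases with genes on the opposite strand, are uncertain for the same reason. Kif20b, a further kinesin-6 with a role in late cytokinesis, had 52.1, 49.4 and 45.2 RPKM in ZP3 Trim-away and 70.5, 60.6 and 53.0 RPKM in the buffer control. All control libraries lay above all ZP3 Trim-away libraries, with a log2 fold change of −0.32 ± 0.15 (SE, adjusted p = 0.291). It was −0.50 with median ratio scaling (adjusted p = 0.157) and −0.51 with quantile normalization.

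Added up, kinesin-6 came to 243, 234 and 227 RPKM in ZP3 Trim-away and 274, 259 and 253 RPKM in the buffer control. This gap comes from Kif20a and Kif20b, since Kif23 overlapped, and it carries no test. The sums of kinesin-3 did not overlap either and were lower in ZP3 Trim-away, while those of kinesin-4 and kinesin-13 were higher without overlap. The most abundant members of these families were Kif14, Kif4 and Kif2c, in that order. Of all single genes, 20.3% were higher and 6.34% lower without overlap, and no such share was computed for sums. The ratio of Kif20a to Kif20b, which does not depend on the scaling of a library, was 1.75 ± 0.161 in ZP3 Trim-away and 1.6 ± 0.0654 in the buffer control. The exons of Kif20a span 4338 bases and those of Kif20b 6957 bases. With the length trend removed, the log2 fold change was −0.38 for both genes. Kif14, a kinesin-3 that works with citron kinase in cytokinesis, had 19.3, 14.7 and 16.6 RPKM in ZP3 Trim-away and 18.6, 27.1 and 23.6 RPKM in the buffer control. Its groups overlapped through control replicate 1 alone, with a log2 fold change of −0.42 (adjusted p = 0.291).

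Kif4 stood on the other side of 0. It encodes a chromokinesin that binds chromosome arms and, with PRC1, sets the length of the midzone overlap. Kif4 (ENSMUSG00000034311) had 30.1, 39.8 and 30.7 RPKM in ZP3 Trim-away, against 21.2, 20.3 and 24.1 RPKM in the buffer control. Every ZP3 Trim-away library lay above every control, and the log2 fold change was 0.59 ± 0.17 (SE, interval 0.19 to 0.98, unadjusted p = 0.00872, adjusted p = 0.121). Within each library, the ratio of Kif4 to Kif20b was 0.577, 0.805 and 0.679 in ZP3 Trim-away and 0.301, 0.334 and 0.454 in the buffer control. This ratio was chosen with the values known and carries no test. In Kif4, 15.1% of exon bases are shared with Pdzd11 on the opposite strand, and a processed copy, Kif4-ps, had 0.199 to 0.965 RPKM in ZP3 Trim-away and 0, 0 and 3.93 RPKM in the buffer control. When the test was limited to the 3459 genes that averaged 10 RPKM or more, the adjusted p of Kif4 was 0.0618. Kif22, the other chromokinesin of the set, had 34.2, 24.0 and 33.4 RPKM in ZP3 Trim-away and 34.0, 31.9 and 30.2 RPKM in the buffer control, with 1 low ZP3 Trim-away library and otherwise like values (log2 fold change −0.08, adjusted p = 0.838).

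The kinesin-13 motors, which remove tubulin from microtubule ends instead of walking, contained members on both sides of 0. Kif2c, or MCAK, which corrects kinetochore attachments, had 36.3, 36.5 and 33.9 RPKM in ZP3 Trim-away and 27.9, 26.5 and 18.3 RPKM in the buffer control. The groups did not overlap, and the log2 fold change was 0.56 ± 0.19 (SE, interval 0.13 to 0.99, adjusted p = 0.161). With the trend of fold change on exon length removed, the value of Kif2c was 0.37, and with median ratio scaling it was 0.37 as well. Kif2a, which acts at spindle poles, had 6.86, 7.01 and 9.16 RPKM in ZP3 Trim-away and 13.8, 14.5 and 10.8 RPKM in the buffer control. It was the lowest fold change among kinesins, −0.69 ± 0.23 (SE, interval −1.21 to −0.18, unadjusted p = 0.0138, adjusted p = 0.149), again with no overlap.

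The ratio of Kif2c to Kif2a was 5.29, 5.20 and 3.70 in ZP3 Trim-away and 2.03, 1.82 and 1.69 in the buffer control. It therefore averaged 4.73 ± 0.892 in ZP3 Trim-away and 1.85 ± 0.168 in the buffer control (SD, n = 3 each). The pair was set side by side with the values of both genes known, so no test is attached. In Kif2a, 19.2% of exon bases are shared with Dimt1 on the opposite strand, whereas Kif2c shares none. Kif24, a kinesin-13 of centrioles that restrains cilium formation, had 7.37, 8.72 and 5.04 RPKM in ZP3 Trim-away and 2.96, 3.16 and 4.93 RPKM in the buffer control. It had the highest log2 fold change among kinesins, 0.78 ± 0.30 (SE, interval 0.09 to 1.47, adjusted p = 0.211), and the lowest ZP3 Trim-away library lay just above the highest control.

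**Figure D3:**
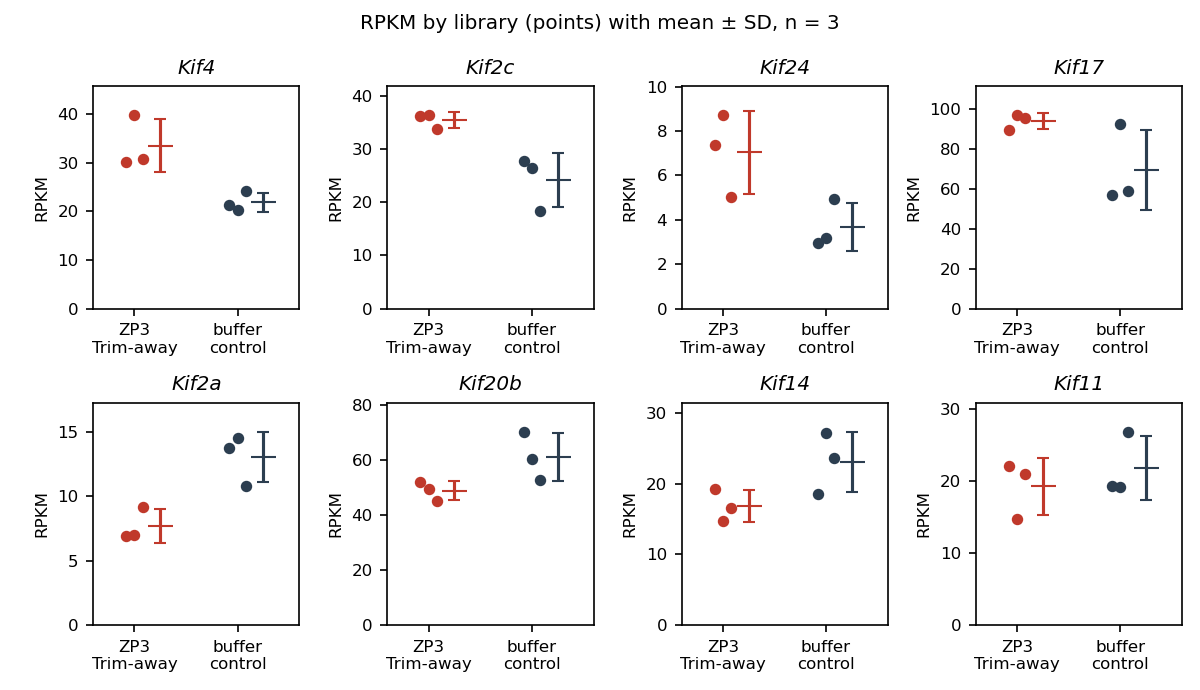
RPKM in each library (points) with mean ± SD to the right of the points (n = 3) for 8 kinesins, ZP3 Trim-away on the left and buffer control on the right, on axes that start at 0. Kif4, Kif2c and Kif24 have no overlap with ZP3 Trim-away above, Kif2a and Kif20b have none with ZP3 Trim-away below, and in Kif17 control replicate 2 lies among the ZP3 Trim-away libraries.

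The remaining spindle motors showed overlap or a narrow gap. Kif11, the tetrameric kinesin-5 that pushes spindle poles apart, had 22.1, 14.7 and 21 RPKM in ZP3 Trim-away and 19.4, 19.2 and 26.9 RPKM in the buffer control. Its log2 fold change was −0.17 with an interval of −0.68 to 0.33 (adjusted p = 0.703), which leaves room for a difference in either direction. Kif18a, a kinesin-8 that damps chromosome movements at the metaphase plate, had 30.9, 27.9 and 28.9 RPKM in ZP3 Trim-away and 22, 26.2 and 20.3 RPKM in the buffer control. The groups did not overlap and the log2 fold change was 0.35 (adjusted p = 0.287), which was 0.17 with median ratio scaling and 0.20 with quantile normalization. Its relative Kif18b, which limits astral microtubules, had 7.59, 9.52 and 7.20 RPKM in ZP3 Trim-away and 2.79, 14 and 2.88 RPKM in the buffer control. Here control replicate 2 was above all other libraries and the remaining controls were below all of them (log2 fold change 0.58, adjusted p = 0.562). Without control replicate 2 the value was 1.24 (adjusted p = 0.0507), and it was 0.25 without control replicate 1, 0.27 without control replicate 3 and 0.36 with the length trend removed.

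Kifc1, a kinesin-14 that walks to the minus end and focuses spindle poles, had a mean of 7.87 ± 2.52 RPKM in ZP3 Trim-away and 8.77 ± 4.79 RPKM in the buffer control, and its groups overlapped. Reads of Kifc1 can also match Kifc5b and Kifc5c-ps, which are close copies, so its level is uncertain. Kifc3, the other kinesin-14 tested, had 2.29 ± 0.204 RPKM in ZP3 Trim-away and 2.43 ± 1.64 RPKM in the buffer control, and 27.5% of its exon bases are shared with other genes.

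Among the motors of transport, kinesin-2 was prominent. Kif17 (ENSMUSG00000028758), a homodimeric kinesin-2 known from cilia and from dendrites of neurons, had 89.7, 97.1 and 95.4 RPKM in ZP3 Trim-away and 56.9, 92.7 and 58.8 RPKM in the buffer control. Control replicate 2 lay among the ZP3 Trim-away libraries and the other controls lay well below. The log2 fold change was 0.47 ± 0.19 (SE, interval 0.04 to 0.90, adjusted p = 0.222). It was 0.28 with median ratio scaling (interval −0.13 to 0.69, unadjusted p = 0.158), 0.28 with quantile normalization and 0.30 with the length trend removed (unadjusted p = 0.127). Without control replicate 2 it was 0.69 with limma adjusted p = 0.0401, in a setting where 300 of 10009 genes passed. Kif17 was thereby the only kinesin called in any setting other than the columns as deposited. Its value was 0.34 without control replicate 1 (adjusted p = 0.352) and 0.37 without control replicate 3 (adjusted p = 0.319).

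The heterodimer of Kif3a and Kif3b, the motor of intraflagellar transport, showed the same control library on the high side. Kif3a had 31.1, 36.2 and 22.6 RPKM in ZP3 Trim-away and 17.9, 30.4 and 17.3 RPKM in the buffer control (log2 fold change 0.46, adjusted p = 0.375). The value was 0.27 under median ratio scaling and 0.23 with the length trend removed. Leaving out control replicates 1, 2 and 3 in turn gave 0.34, 0.71 and 0.32. Kif3b had 4.23, 5.99 and 6.45 RPKM in ZP3 Trim-away and 2.81, 4.39 and 2.50 RPKM in the buffer control (log2 fold change 0.64, adjusted p = 0.292). In the buffer control, the ratio of Kif3a to Kif3b was 6.38, 6.92 and 6.92, and that of Kif17 to Kif3a was 3.18, 3.05 and 3.40, so the 3 genes kept like proportions in control libraries whose levels differed. In ZP3 Trim-away these ratios spread more, with 7.35, 6.05 and 3.50 for Kif3a to Kif3b and 2.89, 2.68 and 4.23 for Kif17 to Kif3a. Kif3b rested on 245 to 556 reads in a library, and the spread of these ratios was not tested. The family summed to 130 ± 8.45 RPKM in ZP3 Trim-away and 94.8 ± 28.6 RPKM in the buffer control (SD, n = 3 each).

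The kinesin-1 heavy chains, the general motors of vesicles and organelles, differed by less than their spread. Kif5c had 21.3, 15.9 and 18.2 RPKM in ZP3 Trim-away and 26.0, 19.3 and 16.6 RPKM in the buffer control (log2 fold change −0.14, adjusted p = 0.757). Kif5b, the form found in most tissues, averaged 7.99 ± 3.23 RPKM in ZP3 Trim-away and 9.43 ± 1.74 RPKM in the buffer control. The ratio of Kif5c, best known from neurons, to Kif5b was 2.46 ± 0.556 in ZP3 Trim-away and 2.18 ± 0.221 in the buffer control. Kif5a, the neuronal form, gave 9 reads in 1 ZP3 Trim-away library and 0 in all others.

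Of the kinesin-3 transporters, Kif16b, a motor of early endosomes, had 4.19, 4.47 and 4.77 RPKM in ZP3 Trim-away and 2.26, 3.03 and 4.18 RPKM in the buffer control. The groups met almost exactly at their nearest libraries and the log2 fold change was 0.42 (adjusted p = 0.468). Kif1b, a carrier of mitochondria and synaptic vesicle precursors, and Kif13a, a carrier of endosomal cargo, overlapped between the groups, as did Kif9, a motor of motile cilia, and Kif21a, a kinesin-4 that slows microtubule growth at the cortex. These 4 had means of 1.39 to 4.19 RPKM in ZP3 Trim-away and 1.80 to 5.25 RPKM in the buffer control.

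The 17 kinesins with a mean under 1 RPKM were not tested. Of these, 10 to 12 were above 0 in ZP3 Trim-away libraries and 6 to 9 in control libraries, which goes with the larger number of all genes above 0 in ZP3 Trim-away. Kif15, the kinesin-12 that can stand in for Kif11 in human cells, gave 116, 131 and 138 reads in ZP3 Trim-away and 3, 21 and 188 reads in the buffer control. The ZP3 Trim-away libraries were close together and the controls spanned them. Kif27 gave 12, 19 and 54 reads in ZP3 Trim-away and 0 in all 3 controls, and Kif28 gave 13, 23 and 22 reads in ZP3 Trim-away and 0 in all 3 controls. A count of 0 allows up to 3 reads in a library, for counting error only. Kif21b and Kif26b were the reverse in 1 library each, with 398 and 104 reads in control replicate 1 and 87 or fewer in every other library. Kif13b gave 158 to 178 reads in ZP3 Trim-away and 53 to 408 in the buffer control, Kif3c 30 to 35 in ZP3 Trim-away and 0 to 53 in the buffer control, and Kifc5b 22 to 52 in ZP3 Trim-away and 11 to 32 in the buffer control. Kif6, Kif7, Kif19a, Kif19b and Kif26a had at most 4 reads in any library, and the largest count of Kif1c was 15, of Kif2b 20 and of Kifc2 14.

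Fold changes were lower in genes with longer exons, and kinesins are long. The median exon length was 6434.5 bases for the 24 kinesins and 3626 bases for all genes tested. Across genes, which are not independent replicates and share the same libraries, Spearman's rho between exon length and log2 fold change was −0.305 over 9858 genes and −0.371 over the 24 kinesins. Genes of over 7000 bases had a median of −0.01 over all 1930 of them and of −0.14 over their 10 kinesins. Genes of 4000 to 5000 bases had medians of 0.20 over all 1051 and 0.43 over their 5 kinesins, Kif20a, Kif17, Kif22, Kif2c and Kif9. With the trend on length removed, the kinesin median was −0.08 and that of all genes 0.01, and at an unadjusted p under 0.05 the kinesins were 2 higher (Kif4 and Kif24), against 7.19% of all genes, and 3 lower (Kif2a, Kif20a and Kif20b), against 7.93%. Over all genes the adjusted calls were then 13 higher and 19 lower.

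**Figure D4:**
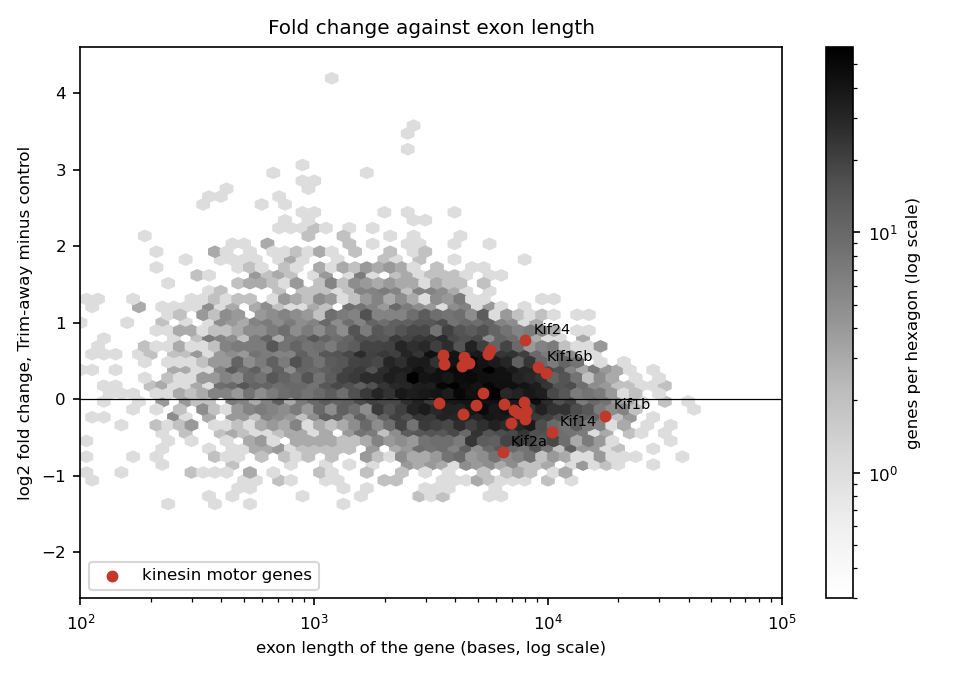
Log2 fold change of RPKM + 1, ZP3 Trim-away minus buffer control, against exon length on a log scale, with all genes tested as grey hexagons shaded by number and the 24 kinesins as red points. Values slope down with length over all genes (rho −0.305), and the kinesins lie between Kif2a at −0.69 and Kif24 at 0.78.

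Fold changes were also listed by 3′ end element, and the difference between kinesins with and without it was not tested. The 5 kinesins with the U-rich element had a median log2 fold change of −0.05 and the other 18 had 0.03, while over all protein-coding genes the medians were 0.12 with the element and 0.20 without. Of the genes whose letters are shown above, all 3 with signal and element together differed in value, with 0.35 for Kif18a, −0.32 for Kif20b and −0.17 for Kif11.

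Partners of the kinesins gave no adjusted call over the 9965 genes either. Cenpe, the kinesin-7 that carries chromosomes to the metaphase plate and lacks a Kif symbol, had 48.4, 42.0 and 38.3 RPKM in ZP3 Trim-away and 63.7, 65.1 and 59.3 RPKM in the buffer control. Its groups did not overlap, with a log2 fold change of −0.54 ± 0.14 (SE, adjusted p = 0.0895). Cenpe passed when the test was limited to genes averaging 10 RPKM or more (adjusted p = 0.0456), where 368 of 3459 genes passed. Apart from the columns as deposited, it passed in no other alternative. The adjusted p was 0.0742 with median ratio scaling and 0.149 with a replicate block. Of 14 spindle partners, such as midzone, kinetochore and chromosomal passenger proteins, 0 passed with limma, 1 was higher and 2 lower at an unadjusted p under 0.05, against 15.8% and 3.70% of all genes, and the median was −0.07, against 0.22 for all genes. The most abundant of them, Nusap1, which bundles spindle microtubules, had 188, 196 and 209 RPKM in ZP3 Trim-away and 141, 138 and 120 RPKM in the buffer control (log2 fold change 0.57, adjusted p = 0.0545). Nusap1 too passed among the 3459 genes averaging 10 RPKM or more (adjusted p = 0.0256) and, apart from the columns as deposited, in no other alternative. The lowest was Kntc1, a kinetochore subunit, at 7.21 ± 1.27 RPKM in ZP3 Trim-away and 12.6 ± 0.763 RPKM in the buffer control (adjusted p = 0.12). Aurkb, the kinase of the passenger complex, had the highest value but spanned 0 to 12 RPKM within the controls, against 8.17 to 12.3 RPKM in ZP3 Trim-away.

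Of the kinesin light chains and cargo adaptors, 7 were tested and 0 passed with limma. None had an unadjusted p under 0.05, against 15.8% higher and 3.70% lower over all genes. Their median was 0.07, against 0.22. Trak1, the adaptor of mitochondria and the most abundant, had 7.57 ± 1.98 RPKM in ZP3 Trim-away and 7.64 ± 2.99 RPKM in the buffer control. Kidins220 had the highest value and Kifap3, the adaptor of the Kif3 heterodimer, the lowest, at 0.886 to 1.52 RPKM in ZP3 Trim-away and 0 to 3.78 RPKM in the buffer control. Of the dynein and dynactin genes, which form the motor that walks the other way, 19 were tested and 0 passed with limma, with 5 higher and 0 lower at an unadjusted p under 0.05, against 15.8% and 3.70% of all genes, and a median of 0.30, against 0.22. Dync1i2, the most abundant, had 120 ± 3.00 RPKM in ZP3 Trim-away and 98.2 ± 15.5 RPKM in the buffer control, Dynlt1b had the highest fold change (1.05, adjusted p = 0.132) and Actr1a the lowest (−0.24, adjusted p = 0.434). Of the tubulins, 15 were tested and 0 passed with limma, with 2 higher and 0 lower at an unadjusted p under 0.05, against the same shares of all genes, and a median of 0.25. Tubb3 was the most abundant, at 112 ± 6.88 RPKM in ZP3 Trim-away and 123 ± 10.6 RPKM in the buffer control, while Tubb5 had the highest and Tubg2 the lowest fold change, neither past the test.

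With the control columns as deposited, in which control replicates 2 and 3 are each averaged with replicate 1, 12 kinesins had an adjusted p under 0.05 and 3707 genes did over the table. They were 8 higher (Kif16b, Kif17, Kif18a, Kif24, Kif2c, Kif3a, Kif3b and Kif4), against 25.5% of all genes, and 4 lower (Kif13a, Kif20a, Kif20b and Kif2a), against 11.8%. Nusap1 and Cenpe had adjusted p of 0.00166 and 0.00433 in this setting. Kif17 then had a log2 fold change of 0.58 (limma adjusted p = 0.00508) and Kif2a one of −0.74 (adjusted p = 0.007), values close to those of the separated libraries. Kif13a moved to −0.83, against −0.15 with the libraries separated, where its control replicate 1 had 4.5 RPKM and the other controls 0.955 and 0.645 RPKM. The averaged columns are not independent libraries, so these p-values are too small.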

How the data were processed

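RNA from 6 pools of 13 zygotes was converted to libraries with the NEBNext low-input kit, which starts from poly(A) tails. The authors deposited RPKM values per gene. Per the labels and the study's methods, the steps before this were FastQC 0.11.9 for quality, Trimmomatic for trimming, HISAT2 for alignment, and htseq-count. The labels name build GRCm39 and the methods GRCm38. Concentrations of injected mRNA and dextran and the injection time after hCG are those of the labels, and the methods give slightly different values. GENCODE M21 on GRCm38 was used here for exon lengths and 3′ ends. Counting drops reads that match several places, and close copies are uncertain.

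Deposited control columns 2 and 3 were never below 0.5 times column 1 and equalled it in 2059 and 2090 genes, so each was separated as 2 times the column minus column 1. RPKM times exon length and library total then gave whole reads, within 0.01, for 95.6% and 95.7% of values, against 9.6% and 9.02% as deposited, with totals found from the separated libraries.

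Groups were compared with limma 3.58.1 (R 4.3.3, trended prior) on log2(RPKM + 1), which understates changes of low genes, for genes averaging 1 RPKM or more, two-sided, with Benjamini-Hochberg adjustment over all genes at 0.05. No label states that pools came from different collections, so p-values cover only the variation among these pools, which may be technical. The step was also run on simulated data with independent noise for each gene, and no result here rests on that run. Tables were made with Python 3.11.15, pandas 2.3.3, numpy 2.4.6 and matplotlib 3.10.9. Values per library are given for kinesins averaging 10 RPKM or more, an unadjusted p under 0.05 or no overlap, and the other lists give their most abundant, highest and lowest member. The members and lists were chosen with earlier results of these data known. Alternatives were other pseudocounts, filters, scalings and priors, removal of the length trend, a replicate block, columns as deposited and leaving out each library.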

Additional observations from a re-analysis of the deposited data

How the results depend on the processing

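The count of kinesins with an adjusted p under 0.05 was 0, and it was 0 in every alternative but the columns as deposited (12) and the omission of control replicate 2 (1, Kif17, which puts the range over left-out libraries at 0 to 1). The count over all genes was far less stable than that. Against 63 genes it was 19 with a pseudocount of 0.1 RPKM, 0 without a filter (limma, 3323 at an unadjusted p under 0.05), 368 at a mean of at least 10 RPKM, 12 with median ratio scaling, 24 with quantile normalization, 19 without Trim21 reads, 32 with the length trend removed, 3707 with columns as deposited and 11 with a constant prior spread. Left-out libraries gave 0 to 300: 0 without any single ZP3 Trim-away library (1208, 1100 and 1238 at an unadjusted p under 0.05) and 162, 300 and 125 without control replicates 1, 2 and 3. Replicate numbers are shared between the groups, but same-numbered libraries did not deviate together (correlations of −0.06, 0.02 and −0.05), and with a replicate block 0 genes passed (1733 at an unadjusted p under 0.05) and 0 kinesins.

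Fold changes near 0 changed sign. With left-out libraries Kif23 ran over −0.097 to 0.024, Kif22 over −0.17 to 0.077, Kif5c over −0.28 to 0.032, Kifc1 over −0.48 to 0.31, Kif1b over −0.50 to 0.021, Kifc3 over −0.41 to 0.37, Kif13a over −0.48 to 0.39, Kif21a over −0.39 to 0.28, Kifap3 over −0.83 to 0.30 and Trak1 over −0.30 to 0.21. Kif23 was 0.025 with columns as deposited. Kifc3 was −0.036 with median ratio scaling, −0.23 with quantile normalization and −0.048 with the length trend removed. Kifap3 was 0.42 with a pseudocount of 0.1 RPKM. Trak1 was −0.13 with median ratio scaling, −0.12 with quantile normalization, −0.062 without Trim21 reads and −0.15 with columns as deposited. Trim21, the top gene of every library, was 0 with quantile normalization, by construction. The cause of the other changes was not tested. Kif4, Kif2c, Kif17 and Kif2a kept their sign in all 16 alternatives and Kif24 in the 15 that tested it. A count of 3 reads equals 0.15 to 0.196 RPKM at 1 kb of exon and less in longer genes.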
